A study of Mus musculus with 14 samples.

Results

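Ribosome biogenesis and nucleolar genes were followed in mouse tumor-derived cells carrying a guide RNA against Nsd3 (sgNSD3) and in the same kind of cells carrying a control guide RNA (sgControl). The 40 genes were taken by symbol from a fixed list, and all 40 were found among the 55433 genes of the RNA table and among the 22470 gene bodies of the chromatin table. Per the labels, both conditions were C57BL/6 cells at passages 6 to 8. RNA was measured in 3 libraries per condition, and the chromatin samples covered dimethylation of histone H3 at lysine 36 (H3K36me2), a mark that Nsd3 is known to write, and trimethylation at lysine 27 (H3K27me3). The tumor type, the number of guides, and whether a condition was a pool or 1 clone are not given in the labels. Whether the 3 RNA libraries of each condition are independent cultures is not labelled either, so every p-value refers to library-to-library spread, possibly only technical. Replicate numbers are those of the sample titles.

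Ribosomes are assembled in the nucleolus. RNA polymerase I transcribes the ribosomal RNA precursor, small nucleolar ribonucleoproteins (snoRNPs) guide its chemical modification, and large sets of assembly factors cut, fold and export the small and the large subunit. Genes of this program are known to be expressed together in growing cells, and the transcription factor Myc is a known activator of many of them.

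Promoter sequences from RefSeq's table for GRCm38.p6 are shown here for Rrn3, Rrp9 and Pa2g4, whose RNA passed the test below, and for Nop2, which did not pass it and has both motifs searched, chosen after its motifs were seen. Of the 40 members, 35 matched a promoter entry; Npm1, Rrp12, Tcof1, Fbl and Bop1 did not. Each window runs from 250 bases before to 50 bases after the start site, 5′ to 3′ on the gene's strand. Capitals mark the E-box CACGTG, which Myc and its partner Max are known to bind, and the ETS factor motif CCGGAAG on either strand. The windows are chr16:13780449-13780748 (plus strand) for Rrn3, chr9:106477059-106477358 (plus strand) for Rrp9, chr10:128565885-128566184 (minus strand) for Pa2g4 and chr6:125131633-125131932 (plus strand) for Nop2.
Rrn3: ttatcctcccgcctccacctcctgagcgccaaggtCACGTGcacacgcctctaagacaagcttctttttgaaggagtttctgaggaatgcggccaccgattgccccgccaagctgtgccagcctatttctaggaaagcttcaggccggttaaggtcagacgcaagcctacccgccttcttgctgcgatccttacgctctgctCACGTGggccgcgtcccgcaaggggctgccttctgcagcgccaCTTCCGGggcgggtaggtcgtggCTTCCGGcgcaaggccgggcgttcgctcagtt
Rrp9: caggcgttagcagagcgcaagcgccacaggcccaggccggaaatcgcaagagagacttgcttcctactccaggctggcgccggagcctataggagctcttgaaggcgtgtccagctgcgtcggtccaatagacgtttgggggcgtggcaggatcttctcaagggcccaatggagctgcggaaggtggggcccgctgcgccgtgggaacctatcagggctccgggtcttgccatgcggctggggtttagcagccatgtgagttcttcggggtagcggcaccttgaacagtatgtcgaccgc
Pa2g4: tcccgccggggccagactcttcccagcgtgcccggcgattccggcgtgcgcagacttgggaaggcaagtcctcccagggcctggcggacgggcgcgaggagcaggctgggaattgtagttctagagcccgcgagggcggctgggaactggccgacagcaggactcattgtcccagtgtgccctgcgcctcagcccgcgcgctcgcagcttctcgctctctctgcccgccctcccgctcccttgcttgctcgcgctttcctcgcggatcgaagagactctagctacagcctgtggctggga
Nop2: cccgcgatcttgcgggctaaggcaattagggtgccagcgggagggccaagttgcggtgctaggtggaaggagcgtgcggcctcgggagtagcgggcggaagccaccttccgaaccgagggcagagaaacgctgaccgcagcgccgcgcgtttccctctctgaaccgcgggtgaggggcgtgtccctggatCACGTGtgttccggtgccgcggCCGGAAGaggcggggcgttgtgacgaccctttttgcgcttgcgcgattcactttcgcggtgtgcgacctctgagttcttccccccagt

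The Rrn3 window held 2 E-boxes, which begin 215 and 48 bases before the start site, and 2 ETS motifs. The Nop2 window held 1 E-box, 60 bases before the start site, and 1 ETS motif. No match to either motif was in the Rrp9 or Pa2g4 windows. Among all members with an entry, 10 of 35 (28.6%) had an E-box, namely Exosc5, Grwd1, Imp4, Ipo4, Mybbp1a, Nop2, Pes1, Rrn3, Utp20 and Wdr43. The share was 17.3% of 110 other ribosome biogenesis genes and 8.91% of 17492 protein-coding genes, or 11.5% of the 10310 whose RNA was tested. The ETS motif was in 11 of 35 members (31.4%), in 49.1% of the other ribosome biogenesis genes, in 12.9% of protein-coding genes and in 19.5% of those with tested RNA. The letters of the E-box and of the ETS motif do not allow the motifs to overlap each other. Of single windows in the whole table, 7.15% held the E-box and 8.86% the ETS motif. Median GC content was 58% over the members' windows, 56.3% over those of protein-coding genes and 60.7% over those of protein-coding genes with tested RNA. These matches describe the letters of the windows and are not binding data.

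Recovered totals ran from 20294828 to 21863833 counts per RNA library. Nsd3, the gene the guide was aimed at, had 21989, 22012 and 21837 normalized counts in sgNSD3 replicates 1, 2 and 3, against 14568, 14402 and 14675 in sgControl replicates 1, 2 and 3. Its RNA was thus higher in the libraries labelled sgNSD3 (log2 fold 0.59 ± 0.025, SE; limma adjusted p = 5.86e-14), and conditions are named by these labels throughout. The RNA level does not show whether the protein was disrupted. Among the 2 IgG control samples, whose values were not used here, the one titled sgNSD3 carries a source label of sgControl, so the labels also conflict there. If the RNA labels were exchanged, every direction given here would be the opposite. Pairs of libraries differed by more than counting error, with a chi-square per degree of freedom of at least 1.3. It ran from 1.30 to 1.41 within sgNSD3 and from 2.70 to 8.92 within sgControl, and was at least 6.66 between conditions. The most different sgControl libraries thus lay further apart than any sgNSD3 library from any sgControl library. The most similar sgControl libraries lay closer together than that. The limma fits take 1 spread per gene for both conditions, although sgControl libraries differed more among themselves. The effect of this on the p-values, SEs and intervals was not tested. Of marker lists, fibroblast and mesenchyme genes summed to 761665 to 768182 normalized counts in sgNSD3 and 694151 to 788757 in sgControl, with Col1a1 and Pdgfrb called higher and Pdgfra called lower. Squamous markers summed to 141 to 167 in sgNSD3 and 207 to 261 in sgControl, nearly all of it Krt14, which was called lower (1 of 5). Dsg3 was at 0 in every library, and Trp63 and Sox2, both too low to be tested, were higher in each sgNSD3 library than in each sgControl library. Simple epithelial markers summed to 2935 to 2951 in sgNSD3 and 4055 to 4566 in sgControl, with Epcam at 0 and Krt18 and Krt19 called lower (2 of 5). Leukocyte markers summed to 61.0 to 74.3 in sgNSD3 and 71.0 to 85.2 in sgControl, with Adgre1 and Cd3e at 0 and 0 of 4 called. Endothelial markers summed to 186 to 213 in sgNSD3 and 107 to 135 in sgControl, nearly all of it Kdr, with Kdr called higher (1 of 3). The part of these differences in the results below was not tested.

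Most members of the ribosome biogenesis program had nearly the same RNA level in both conditions, and the few that passed the test were lower in sgNSD3. Normalized counts are counts divided by the size factor of their library, and all 40 members passed the filter, a mean of 8 or more. In the limma test over 18263 genes (Benjamini-Hochberg adjusted p under 0.05), 4 of 40 members fell, against 6.44% of all genes tested. The 4 were Rrp9, Pa2g4, Npm1 and Rrn3. None rose, against 5.44% of all genes, and the count of higher members was also 0 at an unadjusted p under 0.05 and by limma-voom. At an unadjusted p under 0.05, 10 of 40 members were lower, against 13% of all genes tested, and 11.7% of all genes were higher. The count of called members was 2, 1 and 1 without sgNSD3 replicate 1, 2 and 3. With the test limited to the 12871 genes with a mean of at least 50 normalized counts, 1121 genes fell and 902 rose. All 40 members were among them, with 4 lower and 0 higher. The main share of 10% is near the background, and the count alone is no result about the members.

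The members' log2 folds were small and narrowly spread. The median SE of the log2 fold was also smaller, 0.047 against 0.094 over all genes tested. How much of the narrow spread goes with this was not tested. Their median was -0.04, against 0.00 over all genes tested, and they ran from -0.26 for Rrp9 to 0.10 for Noc4l. The log2 fold was below 0 for 29 of 40 members, against 49.8% of all genes, and for 24 of 40 after quantile normalization. Leaving out 1 library at a time gave 25 to 31 of 40. The libraries of the 2 conditions did not overlap for 11 members that were lower in sgNSD3 and 1 that was higher, against 14.4% and 14% of all genes tested. Of these 12 members 8 were not called.

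**Figure D1:**
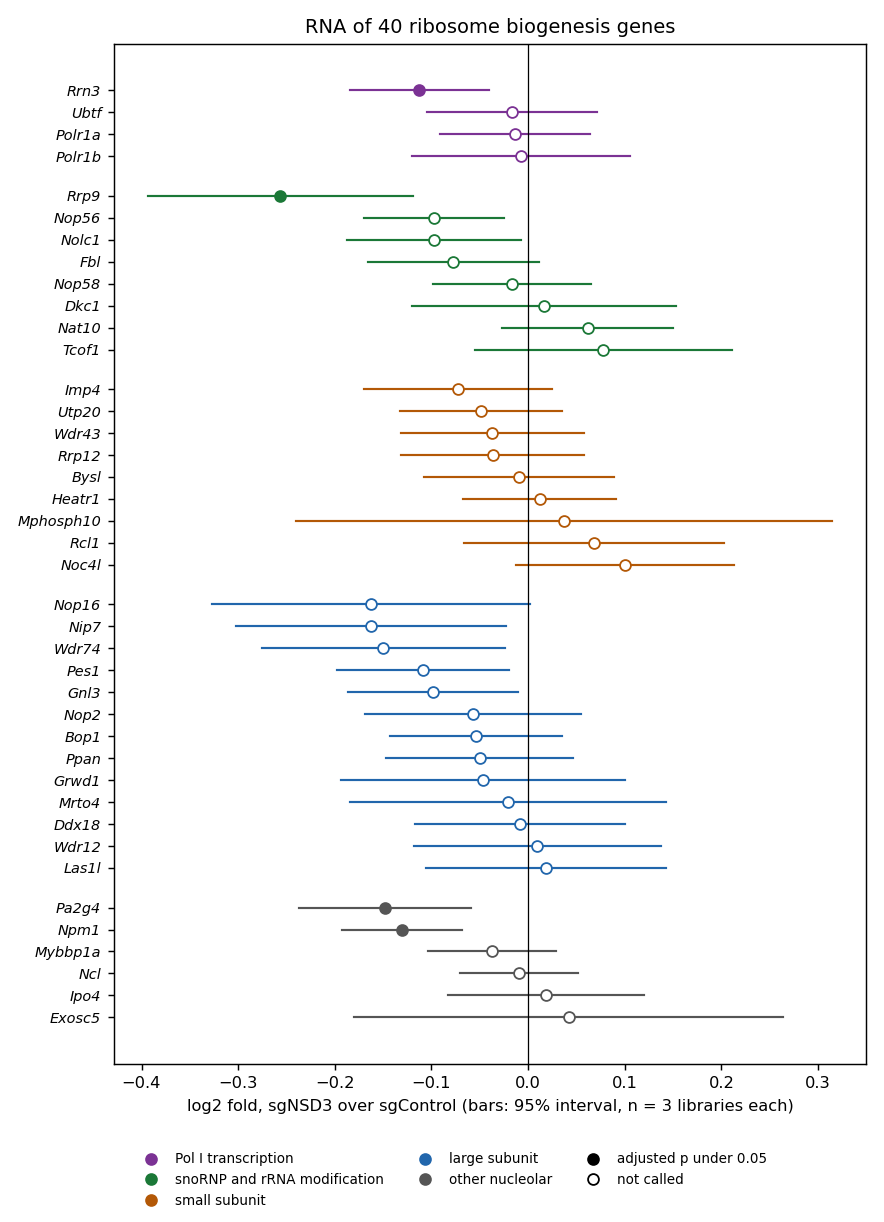
RNA log2 fold of each member (x axis, sgNSD3 over sgControl) with its 95% interval, genes down the page grouped by role; filled points are called. The 4 filled points, Rrn3, Rrp9, Pa2g4 and Npm1, all lie left of 0, and the open points run from -0.16 for Nop16 to 0.10 for Noc4l.

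The standard error of a member's log2 fold ranged from 0.030 for Ncl to 0.13 for Mphosph10, the member with the fewest counts. The 95% interval stayed inside a 1.2-fold change in both directions for 34 of 40 members. It reached past 1.2-fold lower for Rrp9, Nop16, Nip7 and Wdr74, and past 1.2-fold higher for Exosc5 and Mphosph10. Inside 1.1-fold in both directions were 14 members. For the 34 members, a change of 1.2-fold or more lay outside the interval.

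Summed over all 40 members, normalized counts were 54239, 54060.3 and 54197 in sgNSD3 replicates 1, 2 and 3, against 56983, 56349 and 55101 in sgControl replicates 1, 2 and 3. Each sgNSD3 library was below each sgControl library, and the sgNSD3 libraries lay closer together. Npm1, Ncl and Mybbp1a made up 31.7% to 32.6% of this sum in each library. Without these 3, the sums were 36723, 36901 and 36979 in sgNSD3 and 38729, 37979.7 and 37588 in sgControl, again without overlap. The members' geometric means, 917 to 922 in sgNSD3 and 927 to 964 in sgControl, did not overlap either. The median over members of the log2 value minus its sgControl mean did overlap. It was -0.0449, -0.0560 and -0.0306 in sgNSD3 replicates 1, 2 and 3, and 0.0204, -0.0048 and -0.0319 in sgControl replicates 1, 2 and 3. In bulk RNA, less RNA per cell and fewer cells expressing a gene cannot be told apart.

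**Figure D2:**
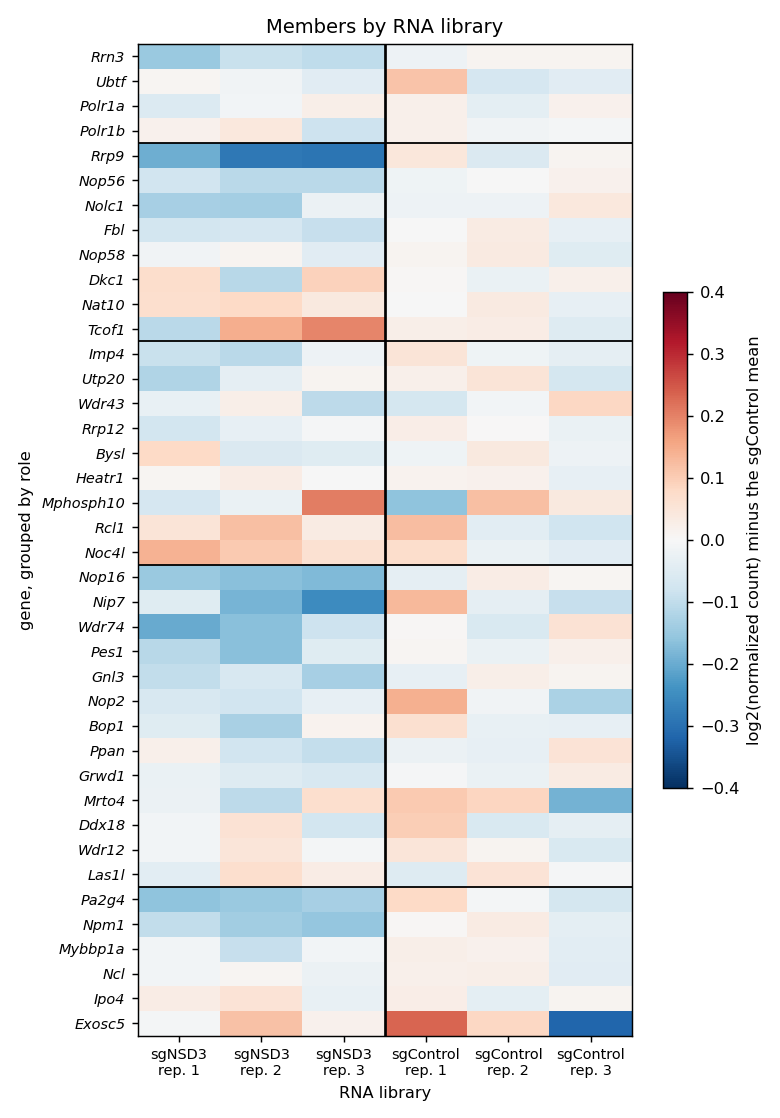
Each member's log2(normalized count) minus its sgControl mean, in colour, for the 6 RNA libraries (columns, sgNSD3 left) and the 40 genes (rows, grouped by role). Rrp9, Nop16, Pa2g4 and Npm1 are below the sgControl mean in all 3 sgNSD3 libraries, and Exosc5 varies most among sgControl libraries.

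The 4 called members are taken by role below, and whether any role group differs from the 6.44% of all genes called lower was not tested. Among the RNA polymerase I genes, 1 of 4 fell and 3 did not pass the test. Rrn3 (chromosome 16, 13780699 to 13814841, RefSeq GRCm38.p6) encodes the initiation factor that brings RNA polymerase I to the ribosomal DNA promoter. It had 2300.5, 2398 and 2379 normalized counts in sgNSD3 replicates 1, 2 and 3, against 2514, 2567 and 2571 in sgControl replicates 1, 2 and 3. Every sgNSD3 library was below every sgControl library. The means were 2359 ± 51.8 in sgNSD3 and 2551 ± 31.7 in sgControl (SD, n = 3 each), which is 1.08-fold lower (log2 fold -0.11 ± 0.035, SE; limma adjusted p = 0.0291). This call was the least stable of the 4, with an adjusted p of up to 0.175 in 9 of 16 alternatives, which included quantile normalization and leaving out any 1 sgNSD3 library or sgControl replicate 2 or 3. Polr1a, the largest subunit of the polymerase, averaged 1970.0 ± 52.5 in sgNSD3 and 1988 ± 44.8 in sgControl normalized counts (SD, n = 3 each). Polr1b, the second largest subunit, averaged 613 ± 27.9 in sgNSD3 and 616 ± 7.54 in sgControl. Ubtf, the upstream binding factor that opens ribosomal DNA chromatin, averaged 2048 ± 37.3 in sgNSD3 and 2075 ± 145 in sgControl. The log2 folds of these 3 lay between -0.02 and -0.01, and all 3 turned positive after quantile normalization, none of them called.

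Among snoRNP and modification genes, 1 of 8 fell, against 6.44% of all genes tested. Rrp9 (chromosome 9, 106477309 to 106485415, RefSeq GRCm38.p6) encodes a protein of the U3 snoRNP, which is needed for the first cuts of the ribosomal RNA precursor. It had 361, 338 and 337 normalized counts in sgNSD3 replicates 1, 2 and 3, against 426, 396 and 416 in sgControl replicates 1, 2 and 3. The groups did not overlap, and this was the largest difference among the members. The means were 345 ± 13.2 in sgNSD3 and 413 ± 15.3 in sgControl (SD, n = 3 each), which is 1.19-fold lower (log2 fold -0.26 ± 0.066, SE; limma adjusted p = 0.0126). The call was lost without sgNSD3 replicate 2 or 3, with a limma adjusted p of up to 0.0669.

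The core proteins of box C/D snoRNPs, which carry out ribose methylation, did not pass the test. Nop56 had 2129, 2086 and 2086 normalized counts in sgNSD3 replicates 1, 2 and 3, against 2223, 2244 and 2275 in sgControl replicates 1, 2 and 3. Its libraries did not overlap, and with a limma adjusted p of 0.0658 (log2 fold -0.10 ± 0.035, SE) it lay nearest to the threshold among the members not called. The methyltransferase Fbl averaged 1076 ± 10.4 in sgNSD3 and 1136 ± 24.7 in sgControl normalized counts (SD, n = 3 each), also without overlap. Nop58, the partner of Nop56, averaged 1616 ± 32 in sgNSD3 and 1635 ± 49.8 in sgControl. Dkc1, the pseudouridine synthase of box H/ACA snoRNPs, averaged 430.4 ± 32.5 in sgNSD3 and 425 ± 6.69 in sgControl. Nolc1, a chaperone of snoRNPs, averaged 1247 ± 55.9 in sgNSD3 and 1334 ± 33.9 in sgControl, with no overlap. The acetyltransferase Nat10 was the 1 member whose sgNSD3 libraries all lay above the sgControl ones, with means of 1174 ± 16.1 in sgNSD3 and 1125 ± 27.5 in sgControl. Tcof1, which links snoRNPs with RNA polymerase I, averaged 679.7 ± 74.1 in sgNSD3 and 641 ± 20.3 in sgControl, with sgNSD3 replicate 1 below every sgControl library and replicates 2 and 3 above them.

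Members hosting snoRNAs in their introns gave no second readout. RefSeq places 20 snoRNA genes inside 7 members (Gnl3, Nop56, Nop58, Ppan, Wdr43, Ncl and Dkc1), strand not compared for the snoRNAs. Of these 13 had a row in the RNA table, 4 of them at 0 in every library. The highest single value was 28.9 normalized counts. The filter left 5, and 0 of these were called by limma or by limma-voom, with 1 higher and 0 lower at an unadjusted p under 0.05.

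No gene of the small subunit group passed the test in limma or in limma-voom, and 0 of 9 reached an unadjusted p under 0.05. Their median log2 fold was -0.01, with 5 below and 4 above 0. Noc4l, an assembly factor of the small subunit, averaged 648 ± 17.5 in sgNSD3 and 604 ± 26.0 in sgControl normalized counts (SD, n = 3 each), with overlapping libraries and the highest log2 fold of all members (0.10 ± 0.055, SE; limma adjusted p = 0.27). Heatr1, a large scaffold protein needed for early processing, averaged 1605 ± 18.4 in sgNSD3 and 1592 ± 31.4 in sgControl. Rcl1, which acts at an early cleavage, averaged 471 ± 15.5 in sgNSD3 and 449 ± 34.5 in sgControl. Mphosph10, a U3 snoRNP protein, averaged 92.5 ± 9.68 in sgNSD3 and 90.1 ± 8.80 in sgControl, with the widest interval of the log2 fold (-0.24 to 0.31). Utp20, Wdr43, Imp4, Rrp12 and Bysl, other factors of this subunit, had log2 folds between -0.07 and -0.01.

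The large subunit group also had no call by limma or limma-voom among its 13 genes. Of these, 11 had a log2 fold below 0, against 49.8% of all genes tested. For 4 the libraries were lower in sgNSD3 without overlap, against 14.4% of all genes. At an unadjusted p under 0.05, 4 were lower, against 13% of all genes. Whether a group of this size differs from these shares was not tested. The group's median log2 fold was -0.05. Nop16, a nucleolar assembly factor, had 224, 221 and 220.0 normalized counts in sgNSD3 replicates 1, 2 and 3, against 242, 254 and 249.7 in sgControl replicates 1, 2 and 3 (log2 fold -0.16 ± 0.080, SE; limma adjusted p = 0.225). Its groups did not overlap. Nip7, which takes part in processing of the large subunit precursor, had 504, 458 and 438 in sgNSD3 and 570.3, 509 and 489 in sgControl, in the same replicate order. Its sgNSD3 replicate 1 lay above sgControl replicate 3, so the groups overlapped (log2 fold -0.16 ± 0.068, SE; limma adjusted p = 0.131). Wdr74, another factor of this pathway, had 442, 453 and 480.0 in sgNSD3 and 509.7, 487 and 529 in sgControl, without overlap (log2 fold -0.15 ± 0.061, SE; limma adjusted p = 0.124).

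The 3 proteins of the PeBoW complex, which is needed for processing of the large subunit RNAs, did not pass the test. Pes1 averaged 1251 ± 52.3 in sgNSD3 and 1348 ± 21.6 in sgControl (SD, n = 3 each, normalized counts), with a limma adjusted p of 0.0986. Bop1 averaged 1636 ± 81.3 in sgNSD3 and 1698 ± 64.6 in sgControl, and Wdr12 averaged 437 ± 10.5 in sgNSD3 and 434 ± 16.3 in sgControl. Only Pes1 among these had libraries that did not overlap, and differences among the 3 genes were not tested. The nucleolar GTPase Gnl3 averaged 1148 ± 28.1 in sgNSD3 and 1229 ± 25.4 in sgControl, again without overlap and not called. The RNA methyltransferase Nop2, whose promoter carries an E-box, averaged 1001 ± 15.8 in sgNSD3 and 1045 ± 98.6 in sgControl. Ppan, Grwd1, Mrto4, Ddx18 and Las1l had log2 folds between -0.05 and 0.02. Reads of Las1l and Bop1 could not be assigned with certainty. RefSeq places 12612 bases of Las1l under Zc3h12b on the other strand and 2058 bases of Bop1 under Scx. The same limit holds for Polr1a, with 2641 bases under Gm26628 on the other strand, and for Heatr1, with 1005 bases under the pseudogene Gm5928. Overlaps of other members were shorter. The sources used here do not say whether counting used strand.

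In the group of other nucleolar genes, 2 of 6 fell, against 6.44% of all genes tested, a difference that was not tested in so small a group. Npm1 (chromosome 11, 33152498 to 33164142, RefSeq GRCm38.p6) encodes nucleophosmin, a histone and ribosome chaperone of the nucleolus. It had 6181, 6018 and 5945 normalized counts in sgNSD3 replicates 1, 2 and 3, against 6648, 6779 and 6439 in sgControl replicates 1, 2 and 3. The groups did not overlap. The means were 6048 ± 121 in sgNSD3 and 6622 ± 172 in sgControl (SD, n = 3 each), which is 1.09-fold lower (log2 fold -0.13 ± 0.030, SE; limma adjusted p = 0.0041). This was the 1 member whose call held in all 16 alternatives, with an adjusted p of up to 0.045. Npm1 has processed pseudogenes that can share its reads, so its level is uncertain to that extent.

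Pa2g4 (chromosome 10, 128557766 to 128565934, RefSeq GRCm38.p6) encodes a growth-regulated protein that binds ribosomes and their precursors. It had 1329, 1339.5 and 1354 normalized counts in sgNSD3 replicates 1, 2 and 3, against 1569, 1478 and 1415 in sgControl replicates 1, 2 and 3. The sgNSD3 libraries lay within a narrow band below the more scattered sgControl libraries. The means were 1341 ± 12.5 in sgNSD3 and 1487 ± 77.5 in sgControl (SD, n = 3 each), which is 1.11-fold lower (log2 fold -0.15 ± 0.043, SE; limma adjusted p = 0.0206). The call was lost without any 1 sgNSD3 replicate and without sgControl replicate 1, where the adjusted p reached 0.0926. None of the 4 called members overlaps another RefSeq gene.

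The member with counts nearest to those of Npm1 did not pass the test. Ncl, nucleolin, which binds the ribosomal RNA precursor, had 6188, 6277 and 6133 normalized counts in sgNSD3 replicates 1, 2 and 3, against 6334, 6344 and 6043 in sgControl replicates 1, 2 and 3. The sgNSD3 libraries lay inside the sgControl range (log2 fold -0.01 ± 0.030, SE, with a 95% interval from -0.07 to 0.05). Mybbp1a, a nucleolar Myb-binding protein, averaged 5051 ± 161 in sgNSD3 and 5183 ± 132 in sgControl. Ipo4, an importin, averaged 809.6 ± 24.2 in sgNSD3 and 799 ± 19.7 in sgControl. Exosc5, a subunit of the RNA exosome, averaged 216 ± 9.85 in sgNSD3 and 212 ± 39.9 in sgControl. That sgControl spread was the widest of all members relative to the mean.

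**Figure D3:**
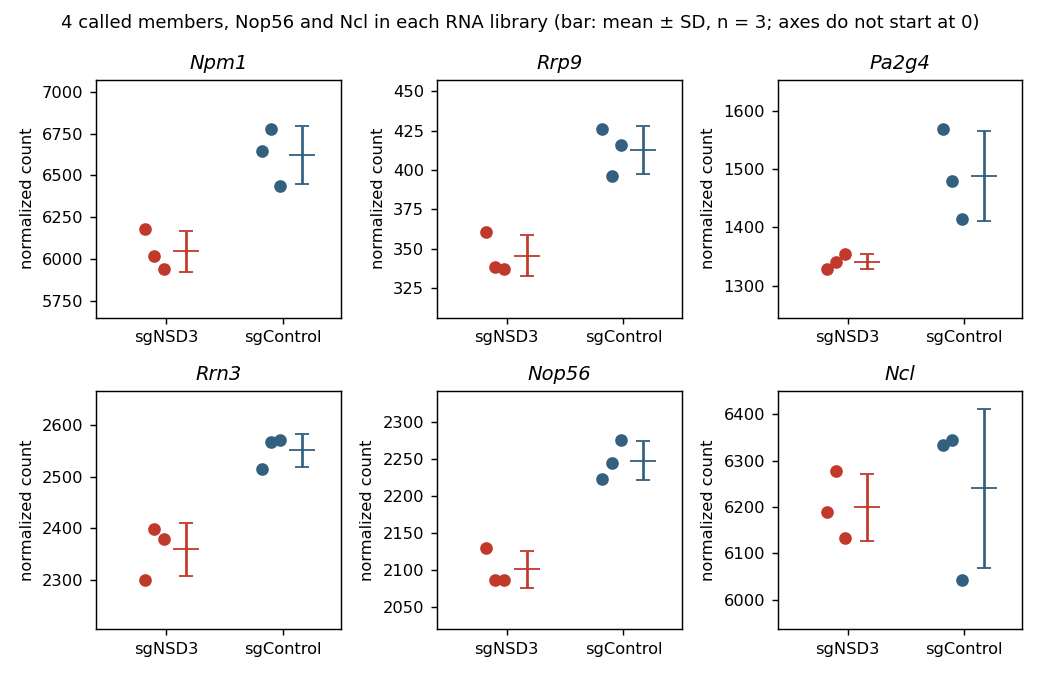
Normalized counts of the called members Npm1, Rrp9, Pa2g4 and Rrn3 and of Nop56 and Ncl in each RNA library, sgNSD3 left and sgControl right, with mean ± SD (n = 3 each); y axes do not start at 0. In the first 5 panels every sgNSD3 point is below every sgControl point, while in the Ncl panel the sgNSD3 points lie within the sgControl range.

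Levels of different genes can be compared here only per kilobase of RefSeq gene span, which includes introns and so understates genes with long introns. On this scale Npm1 (544 normalized counts per kb), Mybbp1a (489.9) and Nop56 (439) were highest, and Mphosph10 (5.82), Rcl1 (10.8) and Las1l (13.2) lowest. Ncl followed at 422 normalized counts per kb, close to Nop56.

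Other genes of the same pathway gave a similar picture of few calls. Of 134 further ribosome biogenesis genes tested, 9 fell (6.72%), against 6.44% of all genes. None rose by limma or by limma-voom. At an unadjusted p under 0.05, 25 of the 134 were lower and 5 higher, against 13% and 11.7% of all genes tested. Their median log2 fold was -0.05, with 100 of 134 below 0, against 49.8% of all genes. Without sgNSD3 replicate 1 the count of falls was 4.

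The counts of each list below stand against 6.44% of all genes called lower, and no list was tested against that share. Of 13 other snoRNP genes 2 fell, both in the box H/ACA particle that holds Dkc1. The other genes of this particle did not share the fall. Nop10 was not called (log2 fold 0.02 ± 0.057, SE; limma adjusted p = 0.884), nor was Dkc1 (log2 fold 0.02). Nhp2 had 475, 473 and 489 normalized counts in sgNSD3 replicates 1, 2 and 3, against 545, 567 and 534 in sgControl (log2 fold -0.20 ± 0.057, SE; limma adjusted p = 0.0275). Gar1 had 164, 168 and 153 in sgNSD3, against 199.5, 188 and 214 in sgControl (log2 fold -0.31 ± 0.094, SE; limma adjusted p = 0.0365). Neither gene's libraries overlapped between conditions, and both calls were lost without any 1 sgNSD3 replicate. Nhp2 was also lost without sgControl replicate 2 and after quantile normalization (limma adjusted p of up to 0.107), and Gar1 without sgControl replicate 1 or 3 (up to 0.153). Of 49 other large subunit genes 3 fell, namely Rsl1d1 (log2 fold -0.20), Rpf2 (-0.35) and Nsa2 (-0.18), of which Rpf2 helps to place the 5S particle. Of 45 other small subunit genes 2 fell, the U3 processome proteins Utp11 (-0.35) and Utp14a (-0.29). Of 15 exosome and spacer-processing genes 2 fell, the nuclear exosome nuclease Exosc10 (-0.21) and the exosome subunit Exosc1 (-0.24). Of 12 other RNA polymerase I genes 0 were called by limma or limma-voom, with 1 lower at an unadjusted p under 0.05 and a median log2 fold of -0.12. Among the 9 genes called, Rsl1d1 and Exosc10 kept their calls in all 16 alternatives. Rpf2 lost it without sgNSD3 replicate 2 (limma adjusted p = 0.0656) and Utp14a without sgNSD3 replicate 1 (limma adjusted p = 0.0863). Utp11 lost it without sgNSD3 replicate 1 or 2 or sgControl replicate 1 (up to 0.0632), Nsa2 without sgNSD3 replicate 1 or 3 or sgControl replicate 1 (up to 0.164), and Exosc1 without sgNSD3 replicate 3 or sgControl replicate 2 (up to 0.0948).

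**Figure D4:**
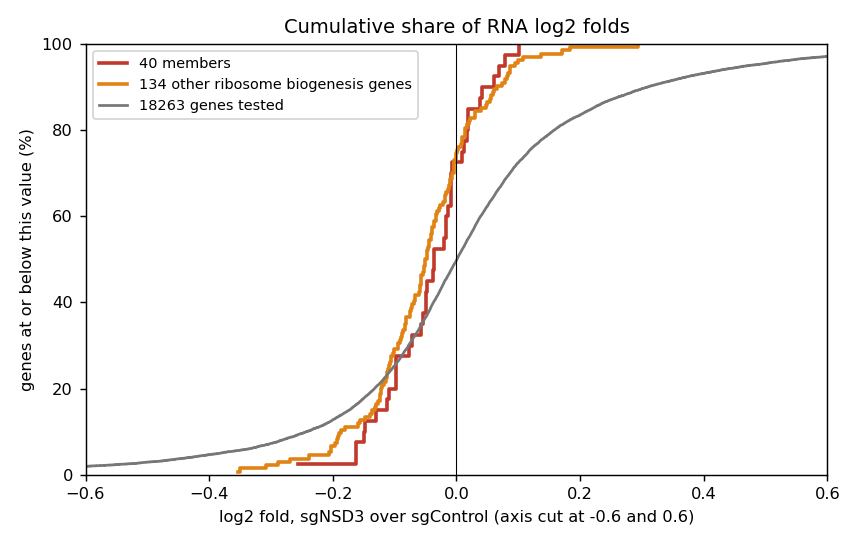
Cumulative share of genes (y axis, percent) at or below a given RNA log2 fold (x axis, sgNSD3 over sgControl), for the 40 members, 134 other ribosome biogenesis genes and all 18263 genes tested. Both ribosome biogenesis curves are steeper than the curve of all genes and pass 0 at 72.5% and 74.6%, against 49.8% for all genes. The median SE of the log2 fold was 0.047, 0.058 and 0.094 in the same order, and its part in the steepness was not tested.

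Of the listed transcripts of ribosomal RNA loci, the product that the members process, 2 were tested and 0 called. Gm26917 took 7.81%, 7.66% and 7.74% of counts in sgNSD3 replicates 1, 2 and 3, against 8.70%, 6.81% and 6.65% in sgControl replicates 1, 2 and 3 (log2 fold of normalized counts 0.08 ± 0.063, SE; limma adjusted p = 0.529). The sgNSD3 libraries lay inside the sgControl range. Gm42418 took 1.63% to 1.65% in sgNSD3 and 1.34% to 1.87% in sgControl (limma adjusted p = 0.724). Both were uncalled by limma-voom too, and 0 reached an unadjusted p under 0.05. The sources used here do not say whether ribosomal RNA was removed before sequencing, and such loci exist in near-identical copies, so these values are uncertain. The other 2 listed transcripts with a row, Rn5s and Gm37711, did not pass the filter. A further ribosomal RNA locus, CT010467.1, was not on the list, and no test of it is given. Together with Gm26917 and Gm42418 it took 10.9% to 11.1% of counts in sgNSD3 and 9.31% to 12.5% in sgControl.

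Myc itself fell in sgNSD3. It had 1197, 1202 and 1279.6 normalized counts in sgNSD3 replicates 1, 2 and 3, against 1519, 1305 and 1469.6 in sgControl replicates 1, 2 and 3 (log2 fold -0.22 ± 0.050, SE; limma adjusted p = 0.0031). Of 10 genes of the Myc and Max network 2 fell, against 6.44% of all genes tested, a difference that was not tested. The other was Mycn, with 200.5, 181 and 168 in sgNSD3 against 265, 201 and 269 in sgControl (log2 fold -0.41 ± 0.10, SE; limma adjusted p = 0.0104). Its sgNSD3 replicate 1 came within 1 normalized count of sgControl replicate 2, and leaving out sgNSD3 replicate 3 or sgControl replicate 3 ended its call (limma adjusted p of up to 0.0738). Members with an E-box in their promoter window had a median log2 fold of -0.05 (10 genes, 1 called), and those without one -0.01 (25 genes, 2 called), a difference that was not tested.

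For chromatin, each gene body has signed scores in the authors' deposited table, 2 for H3K36me2 and 1 for H3K27me3. Which libraries went into a score is not stated, so no direction between sgNSD3 and sgControl was read from it and no test was made. In the authors' deposited table, 31 of 40 members were above 0 in H3K36me2 column 1, against 89.4% of all gene bodies, and 37 of 40 in column 2, against 92.4%. Of gene bodies with tested RNA, 93.3% were above 0 in column 1 and 96.5% in column 2. For H3K27me3, 5 of 40 members were above 0, against 31.5% of all gene bodies and 18.1% of those with tested RNA. The members' medians in the authors' deposited table were 0.0647 and 0.115 for H3K36me2 and -0.0476 for H3K27me3, against 0.0757, 0.125 and -0.0258 over all gene bodies. The other ribosome biogenesis genes had medians of 0.0645, 0.119 and -0.0467 there, with 114 of 127 above 0 in H3K36me2 column 1.

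**Figure D5:**
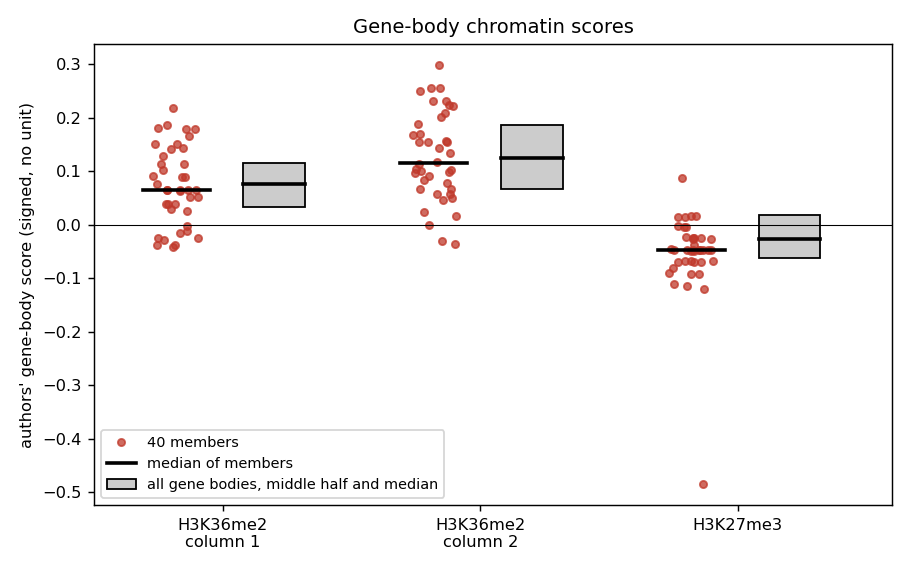
The authors' gene-body scores (y axis, signed, no unit) of the 40 members as points with their median, beside the interquartile range (box) and median of all gene bodies, for the 2 H3K36me2 columns and H3K27me3. The members' medians lie inside the boxes, and 1 member, Heatr1, stands alone at -0.486 for H3K27me3.

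Single members differed widely within each column of the authors' deposited table. In H3K36me2 column 1, Imp4 (0.218), Ubtf (0.186) and Mrto4 (0.180) were highest, and Noc4l (-0.0421), Utp20 (-0.0376) and Bysl (-0.0374) lowest. In column 2 of the authors' deposited table, Npm1 (0.299), Grwd1 (0.257) and Fbl (0.257) were highest, and Wdr74 (-0.0351), Exosc5 (-0.0304) and Nop58 (-0.0013) lowest. The columns thus named different genes at both ends, and Grwd1 was below 0 in column 1 (-0.0249). Spearman's rho between the H3K36me2 columns was 0.168 over the 40 members and 0.222 over 22457 gene bodies, mitochondrial genes left out. For H3K27me3 the authors' deposited table had Ddx18 (0.0875), Npm1 (0.0169) and Noc4l (0.0162) highest and Heatr1 (-0.486), Rcl1 (-0.12) and Rrp12 (-0.114) lowest. Heatr1 was thereby lower than all but 0.089% of gene bodies.

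In H3K36me2 column 2 of the authors' deposited table, Npm1 stood at the 95.5th percentile of all gene bodies, Pa2g4 at 90.3, Rrp9 at 85.1 and Rrn3 at 24. In column 1 the percentiles there were 63.6 for Npm1, 46.7 for Pa2g4, 94.2 for Rrp9 and 43.0 for Rrn3. Rrp9 had 0.180 and 0.223 for H3K36me2, Pa2g4 0.0647 and 0.251, Npm1 0.0903 and 0.299, and Rrn3 0.0645 and 0.0664. Their H3K27me3 scores there were -0.0903 for Rrp9, -0.11 for Pa2g4, 0.0169 for Npm1 and -0.0476 for Rrn3. Spearman's rho between the RNA log2 fold and the score over the 40 members was -0.315 and -0.286 for the H3K36me2 columns and 0.0563 for H3K27me3. Over 12604 gene bodies with tested RNA these were 0.0129, 0.00668 and 0.0532. Genes are not independent replicates, and scores repeat. To 6 decimals, 5 members shared 1 H3K27me3 value, and 26.9% of gene bodies shared theirs with at least 9 others.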

How the data were processed

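RNA values were deposited by the authors on a log2 scale, made with HISAT2, featureCounts and DESeq2 on mm10 per the submitters' processing notes, with versions and settings not given in the sources used here. The authors deposited chromatin data as 1 signed score per gene body and column. Per the file headers, the libraries behind a column are not stated, so the planned limma test between conditions was replaced by a description.

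The deposited RNA values share a floor of 8.45. Inverting the closed form of the variance-stabilising transform gave whole counts, within 0.05, for 100% of values above the floor, with totals of 20294828 to 21863833 per library. Divided by the implied size factors they are the normalized counts. Genes with a mean of at least 8 normalized counts (18263 of 55433) were tested two-sided on the authors' log2 values with limma 3.58.1 (R 4.3.3; trended eBayes) and Benjamini-Hochberg adjustment over all of them at 0.05. For log2 folds, their SE and 95% intervals, limma was run on log2(normalized count + 1), a scale that understates changes of low genes. Other folds are ratios of means.

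The members and lists were chosen with earlier results of these data known. Named genes were Nsd3, the called members, the 3 uncalled members with the largest log2 folds, the 3 highest and 3 lowest members by level per kb and by each chromatin score, Myc, called ribosomal RNA transcripts and hosted snoRNAs, and up to 4 called genes per other list. Further members are given for their roles, and Nop2's promoter, Nop56 and Mycn were picked after values were seen. snoRNAs were matched to hosts without strand, which the annotation lacks for them. Of 141 other pathway symbols, some of them older synonyms, 135 had a row. sgNSD3 replicates 1, 2 and 3 by title are numbers 3, 1 and 2 in the column names.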

Additional observations from a re-analysis of the deposited data

How the results depend on the processing

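The direction of each called member was the same in all 16 alternatives, and no call reversed. Leaving out 1 library at a time gave 1 to 4 members called lower (2, 1 and 1 without sgNSD3 replicate 1, 2 and 3) and 0 to 0 called higher. For the other ribosome biogenesis genes it gave 4 to 10 lower and 0 to 1 higher, and for all genes 707 to 1164 lower and 641 to 993 higher; fewer samples enter these fits. The 1 other pathway gene called higher was Znhit6 on log2(normalized count + 1), after median centring, with a mean of at least 50 normalized counts and with no mean-variance trend (1 gene in each), and Pak1ip1 without sgControl replicate 2; the cause was not tested. With the replicate block by title number 4 members were called lower, and with the block by column number 3, Rrn3 being lost; all-gene counts were 1333 lower and 1119 higher, and 1086 and 919. Same-numbered libraries did not deviate together, with correlations across genes of -0.0134 to 0.046 by title number and -0.0663 to -0.0065 by column number. By title number, sgNSD3 replicates 2 and 3 correlated best with another number and replicate 1 with its own. With 3 libraries per condition, these values cannot settle whether same-numbered samples share a culture or batch. The members' median H3K36me2 score minus that of all gene bodies was -0.0022 for the mean of both columns, -0.011 for column 1 alone, -0.0096 for column 2 alone, -0.0119 against gene bodies with tested RNA and -0.0038 without gene bodies at 0 in each column; the cause was not tested. Mphosph10 had the fewest counts and the largest SE of the log2 fold among the members.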

Other observations

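Rmrp, the RNA of the RNase MRP particle that cuts the ribosomal RNA precursor, was looked up after its values were seen. It had 1589, 1481 and 1677 normalized counts in sgNSD3 replicates 1, 2 and 3, against 2181, 1928 and 1864 in sgControl replicates 1, 2 and 3 (log2 fold -0.33 ± 0.051, SE; limma adjusted p = 4.26e-05). All 3 sgNSD3 libraries were lower than all 3 sgControl libraries, and the log2 fold was larger in size than that of any of the 40 members. Znhit6, an assembly factor of box C/D snoRNPs that was also picked after its values were seen, had 173, 197 and 185 in sgNSD3, against 151, 149 and 150.2 in sgControl (log2 fold 0.29 ± 0.096, SE; limma adjusted p = 0.0522), without overlap and just short of the threshold.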
